A study of Mus musculus with 6 samples.

Results

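The 10 genes described here mark the unmyelinated sensory neurons that are classed as non-peptidergic, many of which detect itch. They were taken by symbol, Mrgprd, Lpar3, Mrgpra3, Mrgprx1, Mrgprb4, Mrgprb5, Nppb, Sst, Il31ra and Cysltr2, from tables of 38926 gene symbols, and all 10 had enough reads to be tested. The tables hold reads per gene from lumbar dorsal root ganglia (levels 3, 4 and 5, on the treated side) of wild type female C57BL/6 mice aged 8 to 10 weeks. There were 3 vehicle libraries and 3 vincristine libraries, each from tissue pooled over 4 animals. Per the sample labels vincristine was given by intraplantar injection, into the sole of the paw, to a total of 40 µg; the table names speak of 10 µg. What the vehicle held and when tissue was taken after dosing were not given in these sources. Vincristine is a tubulin-binding chemotherapy drug known for causing peripheral neuropathy, and the comparison addresses how the ganglion's transcripts differ after it. Each library is a pool of whole ganglia, so fewer cells of a type and less RNA per cell cannot be told apart, nor can animals within a pool.

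Non-peptidergic neurons fall into classes known by their receptors. Neurons with the receptor MRGPRD form the most numerous class in mice and end in the skin's outer layer. A second class carries MRGPRA3 and the related receptors of its gene cluster and responds to pruritogens such as chloroquine. The third class makes the peptides natriuretic polypeptide B and somatostatin, carries the receptors for interleukin-31 and cysteinyl leukotrienes, and passes itch signals to the spinal cord. The 10 genes are described below by these classes, named here by their leading genes: Mrgprd neurons (Mrgprd and Lpar3), Mrgpra3 neurons (Mrgpra3, Mrgprx1, Mrgprb4 and Mrgprb5) and Nppb neurons (Nppb, Sst, Il31ra and Cysltr2). In whole tissue these names stand for the genes, not for counted cells.

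Between 12374331 and 26346304 reads per library fell in genes, the fewest in vincristine replicate 1. That library stood apart from the other 5 on the first principal component, which held 56.4% of the variance. In it 0.546% of reads came from a list of 22 pan-neuronal markers, against 1.0% to 1.28% in the vehicle libraries and 1.04% and 1.25% in vincristine replicates 2 and 3. The fold changes of the 10 genes and the counts of calls are therefore also given without it, while levels, ratios, profile distances and the pan-neuronal scaling use all 6 libraries. Genes induced in injured neurons were higher in all 3 vincristine libraries: 11 of 16 listed genes were called higher by edgeR, and for Atf3, a transcription factor of injured neurons, the difference was 4.83 ± 0.33 on the log2 scale (SE; adjusted p = 0.00732 by edgeR). That list was drawn up with these results known, so its count is no independent evidence.

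None of the 10 marker genes was called different between vincristine and vehicle. By edgeR 0 of 10 passed an adjusted p of 0.05, where 0.359% of the 16706 genes tested did so (60 genes; 0.0658% lower and 0.293% higher). DESeq2 also called 0 of 10, against 2.81% of the genes it tested (0.398% lower and 2.41% higher). At an unadjusted p under 0.05, edgeR had 1 of the 10 lower (Mrgprb5) and 0 higher, where 3.27% of all genes were lower and 8.1% higher. DESeq2 had 2 lower at that level, Mrgprd and Mrgprb5, and 0 higher, against 2.69% and 5.61% of all genes. By direction alone, 7 of the 10 had a log2 fold change below 0, as did 50.7% of all genes. The median over the 10 was -0.34, and that of all genes was 0.00.

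In 4 of the 10 genes, Mrgprd, Lpar3, Mrgprx1 and Mrgprb5, all 3 vincristine libraries lay below all 3 vehicle libraries. The same held for 9.51% of all genes tested. No member had all vincristine libraries above all vehicle libraries, which 11.5% of all genes had. They were 2 of 2 genes of the Mrgprd class, 2 of 4 of the Mrgpra3 class and 0 of 4 of the Nppb class; a difference between classes was not tested. The classes were set from textbook knowledge, with earlier results of these data known.

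**Figure D1:**
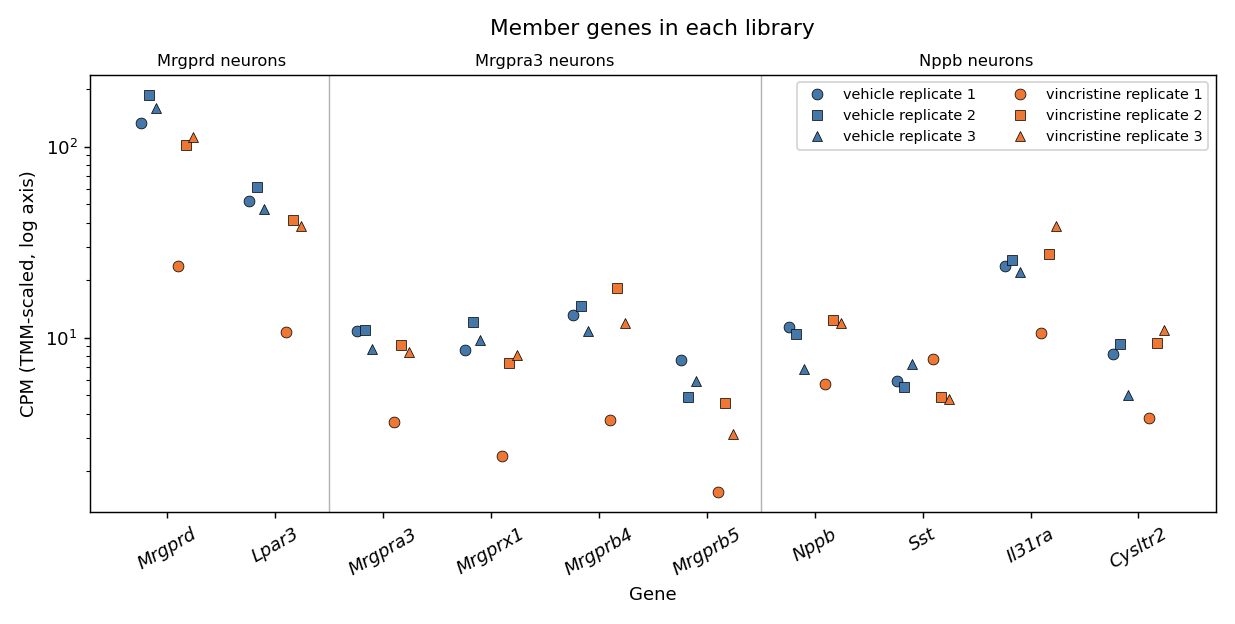
CPM of each of the 10 genes (counts scaled to library size with TMM factors, log axis) in the 3 vehicle libraries (blue) and 3 vincristine libraries (orange), with a symbol shape for each replicate number and the genes grouped by class. Vincristine replicate 1 (orange circles) is the lowest library for every gene but Sst, where it is the highest.

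Mrgprd encodes the receptor that defines the first class and responds to beta-alanine. It had 133, 187 and 159 CPM (its reads scaled to a common library size by the total reads in genes and TMM factors) in vehicle replicates 1, 2 and 3. In the vincristine libraries it had 23.7, 102 and 113 CPM. All vincristine values were lower than all vehicle values, and replicate 1 was far below the other two. Vincristine over vehicle, the log2 fold change was -1.0 ± 0.50 (SE, n = 3 each; edgeR adjusted p = 0.515). Without vincristine replicate 1 it was -0.57 ± 0.15, with an edgeR adjusted p of 0.123. On those 5 libraries DESeq2 called Mrgprd lower (adjusted p = 0.0180), where it called 3.26% of its tested genes (0.586% lower and 2.67% higher); this fit was chosen after the data were seen. At an unadjusted p under 0.05 that fit had 3 members lower and 1 higher, where 2.45% and 4.75% of all genes were. Of all genes tested with all 6 libraries, 0.551% had a log2 fold change as low as that of Mrgprd or lower.

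Lpar3 encodes a receptor for lysophosphatidic acid and is enriched in the same neurons. Its vehicle values were 51.7, 61.5 and 47.2 CPM, and its vincristine values were 10.7, 41.3 and 38.5 CPM. The groups did not overlap, and as for Mrgprd vincristine replicate 1 was the lowest and vehicle replicate 2 the highest library. The log2 fold change was -0.81 ± 0.44 (edgeR adjusted p = 0.539), and -0.42 ± 0.12 without vincristine replicate 1 (edgeR adjusted p = 0.178).

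The Mrgpra3 class rests on receptors whose genes lie near each other on chromosome 7 of GRCm38 and are similar in sequence, so how far reads can tell them apart was checked first. Mrgpra3 spans 47588950 to 47601372, Mrgprx1 48020971 to 48027597, Mrgprb5 48167983 to 48169019 and Mrgprb4 48198070 to 48199288, all on the minus strand (GENCODE M21). Mrgprd lies on the same chromosome at 145314835 to 145324086. All are protein-coding. The longest open reading frames of Mrgprb4 and Mrgprb5 were 84.5% identical, that of Mrgpra3 was 84.6% identical to that of Mrgpra9, and that of Mrgprd was at most 57.0% identical to any of the 20 family genes compared. The following stretches, of 75 bases each like the reads, come from the first aligned part without a gap that is long enough. They are shown because these neighbouring genes gave unlike values after vincristine.
Mrgprb4 bases 58 to 132: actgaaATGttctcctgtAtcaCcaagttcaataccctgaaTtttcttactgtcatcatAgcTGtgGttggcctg
Mrgprb5 bases 61 to 135: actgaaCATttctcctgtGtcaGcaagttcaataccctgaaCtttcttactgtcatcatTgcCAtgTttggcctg
Capitals mark the 10 bases that differ, and positions count from the start codon (GENCODE M21 transcripts). Over whole transcripts, 0 of 1145 windows of 75 bases in Mrgprb4 and 0 of 963 in Mrgprb5 occur in another annotated gene. The same was true of Mrgprd, Lpar3, Nppb, Sst, Il31ra and Cysltr2. Mrgpra3 shared 2 of 1221 windows with Mrgpra4, and Mrgprx1 shared 8 of 1106 with Gm18348. Copies outside annotated transcripts were not analysed here.

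Mrgpra3 encodes a chloroquine receptor of itch neurons. It had 10.9, 11 and 8.75 CPM in vehicle and 3.64, 9.14 and 8.40 CPM in vincristine. The groups overlapped, with vincristine replicate 1 well below the rest. This gave a log2 fold change of -0.51 ± 0.32 (edgeR adjusted p = 0.596), and -0.22 ± 0.15 without that library.

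Mrgprx1, also known as Mrgprc11, encodes a receptor for the pruritogenic peptide BAM8-22. It had 8.63, 12.1 and 9.75 CPM in vehicle and 2.40, 7.41 and 8.17 CPM in vincristine. No vincristine value reached the lowest vehicle value. Its log2 fold change was -0.73 ± 0.40 (edgeR adjusted p = 0.545), and -0.38 ± 0.18 without vincristine replicate 1.

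Mrgprb5 was the member with the smallest p by edgeR. It had 7.67, 4.90 and 5.95 CPM in vehicle and 1.55, 4.54 and 3.12 CPM in vincristine, from 20 to 137 reads per library. The groups did not overlap, although vehicle replicate 2 and vincristine replicate 2 lay close together. For this gene the log2 fold change was -0.98 ± 0.37 (edgeR unadjusted p = 0.0315, adjusted p = 0.380), and -0.70 ± 0.26 without vincristine replicate 1 (edgeR adjusted p = 0.286).

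Mrgprb4 marks fibres known to respond to stroking of the skin. It had 13.1, 14.6 and 10.8 CPM in vehicle and 3.72, 18.1 and 11.9 CPM in vincristine. Vincristine replicate 2 was the highest of the 6 libraries and replicate 1 the lowest, so no direction can be read. Over all libraries the log2 fold change was -0.17 ± 0.47 (edgeR adjusted p = 0.918), and it changed sign to 0.22 ± 0.21 without vincristine replicate 1. When libraries were scaled to pan-neuronal markers it was at 0.05 ± 0.44, where the median of all genes was 0.50.

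In the Nppb class, Nppb itself encodes the natriuretic peptide that itch neurons release onto spinal cord neurons. It had 11.4, 10.4 and 6.85 CPM in vehicle and 5.73, 12.4 and 11.9 CPM in vincristine, with a log2 fold change of 0.08 ± 0.32 (edgeR adjusted p = 0.948). Vincristine replicates 2 and 3 were above every vehicle library and replicate 1 was below every vehicle library. Without replicate 1 the log2 fold change was 0.35 ± 0.21 (edgeR adjusted p = 0.563). It was below 0 when vehicle replicate 3 or vincristine replicate 2 or 3 was left out.

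Il31ra encodes the chain of the interleukin-31 receptor that binds this itch cytokine of T cells. It had 23.8, 25.4 and 22.1 CPM in vehicle and 10.6, 27.4 and 38.6 CPM in vincristine. The vehicle libraries lay close together, while the vincristine libraries lay on both sides of them. Il31ra had a log2 fold change of 0.12 ± 0.40 (edgeR adjusted p = 0.938). Without vincristine replicate 1 it was 0.48 ± 0.15 (edgeR unadjusted p = 0.0148, adjusted p = 0.221), and -0.32 ± 0.35 without vincristine replicate 3. In GENCODE M21, 45 bases of its exons overlap those of Gm3226 on the same strand.

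Cysltr2 encodes a receptor for cysteinyl leukotrienes, lipid mediators of allergy. It had 8.23, 9.27 and 5.0 CPM in vehicle and 3.79, 9.40 and 11 CPM in vincristine. As with Nppb, vincristine replicates 2 and 3 were the highest libraries and replicate 1 the lowest. The log2 fold change was 0.13 ± 0.40 (edgeR adjusted p = 0.931), and 0.45 ± 0.25 without vincristine replicate 1 (edgeR adjusted p = 0.517). Leaving out vehicle replicate 3 or vincristine replicate 3 gave -0.10 and -0.18.

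Without vincristine replicate 1, 3 of the 10 genes (Nppb, Il31ra and Cysltr2) lay above all vehicle libraries in both remaining vincristine libraries, where 17.8% of all genes did. In that setting 5 of the 10 (Mrgprd, Lpar3, Mrgprx1, Mrgprb5 and Sst) lay below all vehicle libraries, where 13.0% of all genes did. By edgeR 0 of the 10 were called without it, against 2.05% of all genes (0.255% lower and 1.79% higher). The unadjusted p was under 0.05 for 3 members that were lower (Mrgprd, Lpar3 and Mrgprb5) and 1 that was higher (Il31ra), where 4.25% of all genes were lower and 8.78% higher.

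Sst, which encodes the inhibitory peptide somatostatin, was unlike the other 9 genes. It had 5.94, 5.52 and 7.25 CPM in vehicle and 7.74, 4.91 and 4.78 CPM in vincristine, with a log2 fold change of -0.12 ± 0.24 (edgeR adjusted p = 0.882). Vincristine replicate 1 was the highest of the 6 libraries, at 124% of the vehicle mean, where the other 9 genes were at 14.8% to 60.0% of theirs. Without it the log2 fold change was -0.37 ± 0.18 (edgeR adjusted p = 0.459). Spinal cord neurons also make somatostatin, and the median of the spinal cord markers was highest in that library. Gad2, an enzyme of inhibitory neurons, had 1.46, 0.834 and 2.60 CPM in vehicle and 12.2, 2.51 and 1.73 CPM in vincristine. Gfap (67.4 CPM) and Mobp (170 CPM) were also highest in vincristine replicate 1. Lmx1b was not, at 0.672, 0.677 and 0.65 CPM in vehicle and 1.01, 1.2 and 1.0 CPM in vincristine. Summed over the 12 listed spinal cord markers, of which 10 were tested and 0 called by either tool (2 higher at an unadjusted p), the level ran from 69.7 to 145 CPM in vehicle and from 93.2 to 366 CPM in vincristine. Their median on the log2 scale was 0.98, and 0.02 without vincristine replicate 1. None of the 12 was at 0 in all libraries. The part of spinal cord RNA in the Sst value was not tested.

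The Sst promoter is known as the place where the cAMP response element was described, and the element is shown because no other member's window held it. The element starts 48 bases before the RefSeq start site. GENCODE M21 has Sst at 23889573 to 23890958 on the minus strand, so by that annotation the element lies inside the gene. In RefSeq (GRCm38.p6) the 30 bases on the minus strand at chr16:23890874-23890903 read as follows, with the element TGACGTCA in capitals.
Sst: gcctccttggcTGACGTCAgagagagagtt
Of the 250 bases before each start, on both strands, 1.55% of 32851 windows held this element, and 1 of the 9 members with a window did. The RUNX letters TGTGGT or TGCGGT were in 0 of the 9 and in 18.6% of all windows. The letters TATAAA were in 2 of the 9, Nppb and Mrgprb4, and in 12.4% of all windows. These matches are letters in a window only.

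**Figure D2:**
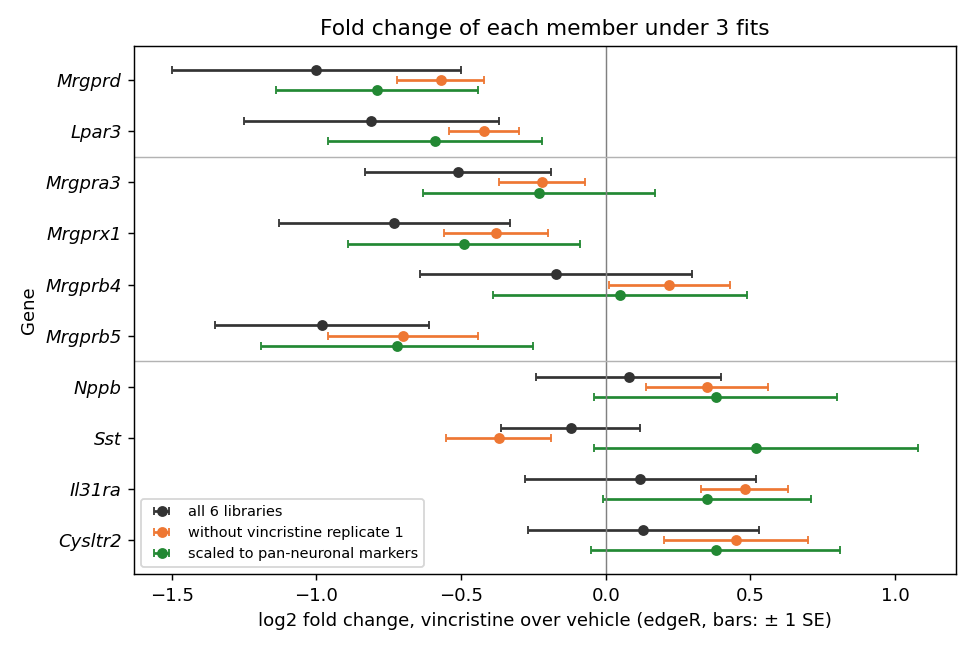
Log2 fold change of each gene, vincristine over vehicle, by edgeR with bars of 1 SE, from all 6 libraries (black), without vincristine replicate 1 (orange) and with libraries scaled to the pan-neuronal markers (green). Mrgprd, Lpar3, Mrgpra3, Mrgprx1 and Mrgprb5 are below 0 under all 3. Nppb, Il31ra and Cysltr2 are above 0 under all 3, and Mrgprb4 and Sst lie on both sides. Under the pan-neuronal scaling the median of all genes is 0.50, so the green values are read against that.

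Because neuronal RNA was scarce in vincristine replicate 1, the genes were also compared with each other inside each library, which needs no scaling factor. Il31ra, the most read gene of the Nppb class, served as the base; this was chosen after the data were seen. Mrgprd had 5.59, 7.37 and 7.20 reads per Il31ra read in vehicle and 2.23, 3.72 and 2.92 in vincristine. The ranges were well apart, and vincristine replicate 1 lay near the other two. The exact two-sided permutation test gave p = 0.1, and 3 against 3 cannot give a lower value. With a base chosen after the data were seen, this p is not read as support. No other member was tried as the base. Lpar3 had 2.17, 2.43 and 2.14 in vehicle and 1.01, 1.51 and 0.997 in vincristine. For Mrgprx1 the vehicle ratios were 0.362, 0.478 and 0.441 and the vincristine ratios 0.226, 0.271 and 0.212. In all, 5 of the 9 other genes had lower ratios without overlap, namely Mrgprd, Lpar3, Mrgpra3, Mrgprx1 and Mrgprb5, and 0 had higher ones. Of all genes tested, 2.13% had lower and 2.04% higher ratios to Il31ra without overlap. Il31ra itself was at 44.6%, 115% and 163% of its vehicle mean in vincristine replicates 1, 2 and 3. By CPM the groups of Mrgpra3 overlapped. A gene of steady CPM would have a raised ratio in vincristine replicate 1 and a lowered one in replicate 3. The shares over all genes include other cells' genes, so they are no like background for ratios of neuronal genes. Nppb (0.480, 0.409 and 0.310 against 0.540, 0.452 and 0.307) and Cysltr2 (0.346, 0.366 and 0.226 against 0.358, 0.344 and 0.285) overlapped.

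**Figure D3:**
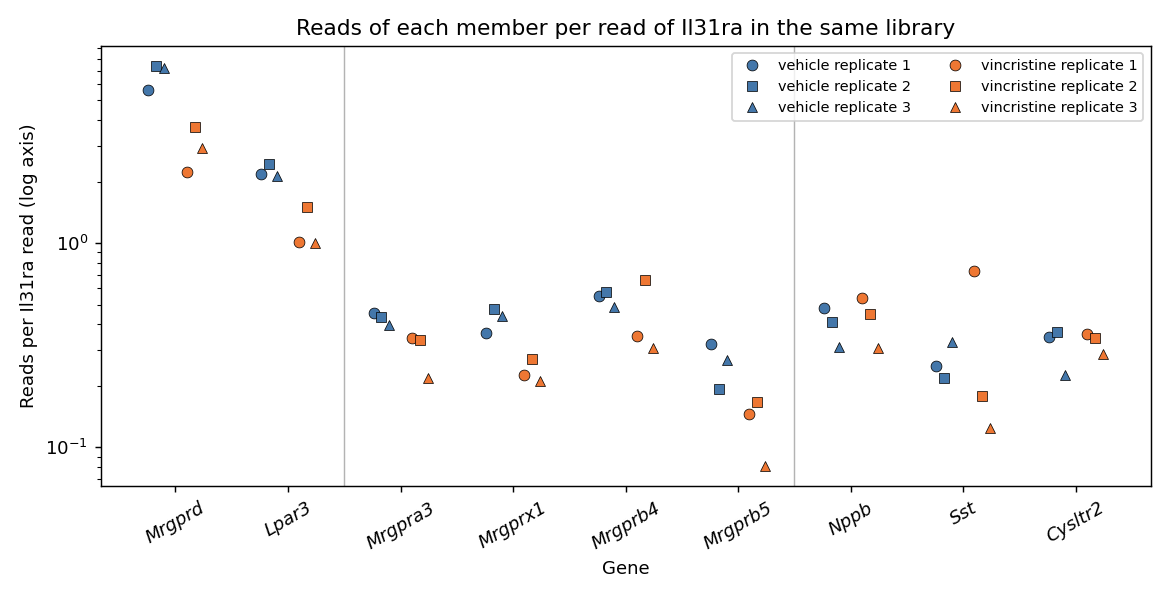
Reads of each gene per read of Il31ra in the same library (log axis), with vehicle in blue and vincristine in orange. For Mrgprd, Lpar3, Mrgpra3, Mrgprx1 and Mrgprb5 every vincristine library lies below every vehicle library, while Mrgprb4, Nppb, Sst and Cysltr2 overlap.

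Scaling the libraries to the summed reads of the pan-neuronal markers set the members against that sum. Abundant genes weigh most in it, among them Nefl at 2940 ± 460 CPM under vehicle and 1700 ± 714 CPM after vincristine (SD). The list also holds Gap43, at 98.0 ± 8.71 and 176 ± 64.4 CPM. The scaling moved the median of all genes to 0.50 on the log2 scale, so values are read against that shift. The log2 fold changes became -0.79 ± 0.35 for Mrgprd (edgeR unadjusted p = 0.0473, adjusted p = 0.539) and -0.59 ± 0.37 for Lpar3. Nppb (0.38 ± 0.42), Il31ra (0.35 ± 0.36), Cysltr2 (0.38 ± 0.43) and Sst (0.52 ± 0.56) were above 0 and close to the shifted median. In this scaling 2 members, Mrgprd and Mrgprx1, lay lower without overlap, where 1.32% of all genes did, and 0 lay higher, where 11.4% did. By edgeR 0 of the 10 were called, against 0.114% of all genes, all of them higher. Mrgprd was the 1 member with an unadjusted p under 0.05, where 0.186% of all genes were lower and 7.49% higher.

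Gene groups of the ganglion give the setting, each as the median over genes of log2 CPM minus the vehicle mean. In vincristine replicates 1, 2 and 3 the Mrgprd class was at -2.52, -0.50 and -0.48. The Mrgpra3 class was at -1.82, -0.28 and -0.28, and the Nppb class at -0.81, 0.29 and 0.47. Pan-neuronal markers were at -1.04, -0.06 and 0.09, and peptidergic neuron markers at -1.49, -0.16 and -0.15. By these medians the Mrgprd class was below the pan-neuronal list in each vincristine library, as were the Mrgpra3 class and the peptidergic markers. The other non-peptidergic neuron genes were below it too, at -1.51, -0.32 and -0.2. For the Nppb class in vincristine replicate 1 the order depends on how the neuronal reference is summarised. As the median log2 CPM of the list, relative to its vehicle mean, that reference was at -0.66, 0.02 and 0.23 in the vincristine libraries, in the order of their numbers. Against it Nppb was at -0.04, Il31ra at -0.50 and Cysltr2 at -0.26 in vincristine replicate 1, and Sst alone was above it, at 0.97. Mrgprd was at -2.08, -0.65 and -0.72 against the same reference in vincristine replicates 1, 2 and 3. The pan-neuronal list had 0 of 22 genes called by either tool. Its 1 gene with an unadjusted p under 0.05, Gap43, a protein of growing axons, averaged 98.0 ± 8.71 CPM under vehicle and 176 ± 64.4 CPM after vincristine (SD). With vincristine replicate 1 left out edgeR called Gap43 higher (log2 1.11, adjusted p = 0.00583) and no other gene of that list. Gap43 is also on the injured neuron list.

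**Figure D4:**
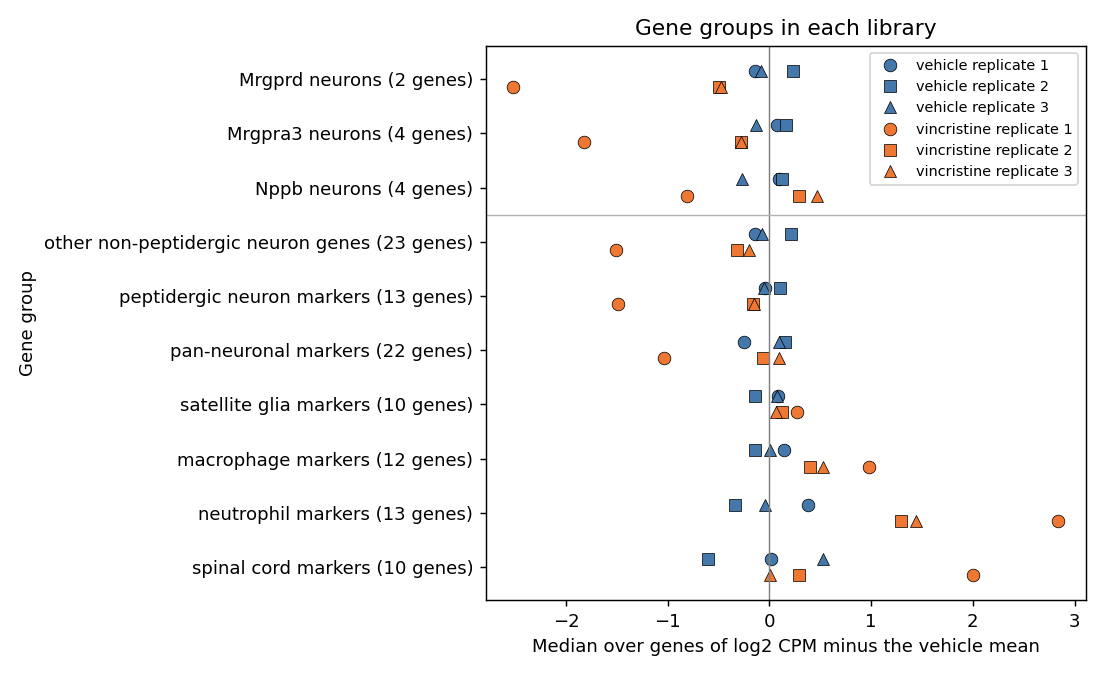
Median over the genes of each group of log2 CPM minus the vehicle mean, for each vehicle (blue) and vincristine (orange) library. Vincristine replicate 1 (orange circle) is lowest for the neuronal groups and highest for macrophage, neutrophil and spinal cord markers, and the Mrgprd class at -2.52 is the lowest value shown.

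Neutrophil, macrophage, erythroid and satellite glia markers were highest, by their medians, in vincristine replicate 1. Not so muscle and skin markers (0.36, 2.59 and 0.62 in vincristine replicates 1, 2 and 3), mast cell markers (-0.36, -0.14 and -0.74) and Schwann cell markers (0.18, 0.19 and -0.2). Neutrophil markers, with 0 of 13 called by edgeR (12 higher at an unadjusted p) and 11 called higher by DESeq2, were at 2.84, 1.29 and 1.44 in vincristine replicates 1, 2 and 3. Their summed level was 835 to 1440 CPM in vehicle and 2610 to 7960 CPM in vincristine. Macrophage markers, with 0 of 12 called by edgeR (10 higher at an unadjusted p) and 6 by DESeq2, were at 0.98, 0.40 and 0.53, and their summed level was 673 to 890 against 1170 to 2260 CPM. Erythroid markers, with 0 of 12 called by edgeR (11 higher at an unadjusted p) and 8 by DESeq2, were at 2.28, 0.94 and 1.08, and summed to 3030 to 4670 against 5580 to 13900 CPM. None of these 3 lists had a gene at 0 in all libraries. Without vincristine replicate 1 edgeR called 9 neutrophil, 1 macrophage (Itgam) and 6 erythroid markers higher. Satellite glia markers (median log2 fold change 0.16) and Schwann cell markers (0.06) each had 0 of 10 called by either tool and 0 at an unadjusted p. In the muscle and skin list 0 of 8 tested genes were called by either tool (2 higher at an unadjusted p), the median was 1.07 and Krt5 was at 0 throughout. In the mast cell list 0 of 10 were called by edgeR (3 lower and 1 higher at an unadjusted p) and the median was -0.39. DESeq2 called 1 of them higher, Hdc, the enzyme that makes histamine, at 7.37 ± 1.47 and 26.1 ± 14.4 CPM, as did edgeR without vincristine replicate 1, while the mast cell protease gene Mcpt4 was at 8.95 ± 0.239 and 6.8 ± 0.35 CPM. The part of these cells in the members' values was not tested.

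None of the other genes of non-peptidergic neurons was called by edgeR with all 6 libraries. Of 23 tested, 20 had a log2 fold change below 0, as did 17 of 22 pan-neuronal, 12 of 14 myelinated and touch neuron and 7 of 8 touch-sensitive C fibre markers, and 50.7% of all genes. In the list 0 were called by edgeR, 6 were lower at an unadjusted p under 0.05 and 2 were called lower by DESeq2. These were Prkcq, a kinase of the protein kinase C family (105 ± 9.48 and 60.6 ± 17.0 CPM; DESeq2 adjusted p = 0.0320), and Cd55, a complement regulator (457 ± 55.6 and 248 ± 80.4 CPM; DESeq2 adjusted p = 0.0336). Without vincristine replicate 1, edgeR called Prkcq lower (log2 -0.58, adjusted p = 0.0357) and no other gene of the list. Ret, the receptor through which these neurons respond to the GDNF family, had a log2 fold change of -0.23 ± 0.43, and 0.14 without vincristine replicate 1. The list's median was -0.60, and -0.32 without vincristine replicate 1. Among 13 peptidergic markers 11 were below 0 and 0 were called by edgeR, with a median of -0.32 (3 lower and 2 higher at an unadjusted p). These 13 include Gal, which is also on the injured neuron list, and Kit, which is also a mast cell marker. They also include Th, which is among the 8 markers of touch-sensitive C fibres. The non-peptidergic list shares Scn9a with the pan-neuronal list and Gfra2 with the C fibre list. With all 6 libraries DESeq2 alone called the galanin gene Gal higher, at 5.02 ± 0.285 and 23.5 ± 11.7 CPM. On the 5 libraries without vincristine replicate 1 edgeR called Gal (adjusted p = 0.00581) and Adcyap1, a neuropeptide gene (adjusted p = 0.0063), higher. The median of the peptidergic list was then -0.16. The 14 myelinated and touch neuron markers (median -0.19) and 8 markers of touch-sensitive C fibres (-0.22) had 0 calls by either tool and 0 at an unadjusted p. Their medians were -0.04 and 0.07 without vincristine replicate 1, with 0 calls by edgeR.

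Of 15 matched relatives in the Mrgpr family 7 had enough reads to be tested, 0 were called by either tool and 0 had an unadjusted p under 0.05, and the median log2 fold change was -0.18 (-0.02 without vincristine replicate 1, again with 0 calls). Mrgpre (15.9 CPM in vehicle, 14.7 in vincristine) and Mrgprf (12.4 and 13.5 CPM), named after their values were seen, were the most abundant of those tested. Mrgpra6, Mrgprb3 and Mrgprg had 0 reads in all 6 libraries. Mrgprb2, the mast cell receptor, averaged 0.779 CPM under vehicle and 0.514 CPM after vincristine.

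Genes that act with the members were given as 2 lists. Among 30 tested itch receptors and signalling genes, 0 were called by edgeR, while 2 that were lower and 3 that were higher had unadjusted p values below 0.05, and the median log2 fold change was 0.13. Il17ra, an interleukin-17 receptor chain, was called higher by DESeq2 (22.3 ± 3.27 and 43.6 ± 14.4 CPM; DESeq2 adjusted p = 0.0158). The serotonin receptor gene Htr7 was at 11 ± 1.46 and 7.09 ± 1.18 CPM, and Il4ra, the interleukin-4 receptor chain, at 46.1 ± 5.42 and 62.0 ± 7.36 CPM; neither was called. In the fit without vincristine replicate 1 edgeR called 1 gene of the list higher, the sphingosine phosphate receptor gene S1pr3, named after its values were seen, and 0 of the ligands and partner receptors that follow. Among 28 tested ligands and partner receptors of the members, 0 were called by edgeR (1 lower and 3 higher at an unadjusted p) and 2 by DESeq2. Both belong to leukotriene synthesis, upstream of the ligand of Cysltr2: Alox5ap (15 ± 3.09 and 37.2 ± 18.9 CPM; DESeq2 adjusted p = 0.0136) and the lipoxygenase gene Alox5 (7.85 ± 2.15 and 19.2 ± 9.86 CPM; DESeq2 adjusted p = 0.0321). Neutrophils and macrophages also express this pair, and their markers are given above. Interleukin-31 itself (Il31) had 0 reads in all 6 libraries, and Osm, a cytokine that shares a receptor chain with it, was at 0.791 ± 0.144 and 2.18 ± 1.20 CPM without a call.

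To compare levels between genes, CPM was divided by the length of each gene's exons in kilobases (RPKM, GENCODE M21 union of exons). In vehicle the order was Mrgprd at 50.8 ± 8.58 (SD, n = 3), Lpar3 at 21.7 ± 2.97, Nppb at 12.2 ± 3.07, Mrgprb4 at 10.5 ± 1.57, Sst at 8.65 ± 1.25, Mrgprx1 at 8.62 ± 1.52, Mrgpra3 at 7.88 ± 0.975, Mrgprb5 at 5.95 ± 1.35, Il31ra at 4.19 ± 0.290 and Cysltr2 at 2.61 ± 0.777 RPKM. Mrgprd was above 95.2% of tested genes and Cysltr2 above 33.2%. From Nppb down to Mrgprb5 each neighbour's range over the vehicle libraries overlapped the next, so the order of neighbours within those 6 genes is not resolved. Genes farther apart could be told apart by range. Nppb (8.77 to 14.6) and Mrgprb4 (8.86 to 12.0) lay above Mrgpra3 (6.75 to 8.49) and Mrgprb5 (4.72 to 7.4). Sst (7.66 to 10.1) lay above Mrgprb5. The steps from Mrgprd to Lpar3, Lpar3 to Nppb, Mrgprb5 to Il31ra and Il31ra to Cysltr2 were without overlap. In the vincristine libraries Mrgprd was at 25.3 ± 15.4 and Nppb, at 12.8 ± 4.74, came before Lpar3 at 12.2 ± 6.88 RPKM, a difference within the spread. With the longest transcript as length, Il31ra and Cysltr2 were at 6.46 and 4.26 RPKM. Il31ra then came before Mrgprb5 with overlapping ranges, so the order of Il31ra and Mrgprb5 depends on the length used. Mrgprb5 kept the higher mean than Cysltr2, but their ranges now overlapped. Il31ra (6.0 to 6.9) lay above Cysltr2 (2.84 to 5.27) without overlap, as with the union of exons.

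The likeness of profiles was measured as the root mean square distance between log2 CPM over the 6 libraries, each gene centred on its own mean, among genes that averaged 1 CPM or more. It describes these 6 libraries, which share their depth and the low neuronal RNA of vincristine replicate 1. Nearest to Mrgprd were Mrgprx3-ps, an Mrgpr pseudogene, at a distance of 0.130, Cyp2j12 at 0.140 and the kainate receptor gene Grik1 at 0.179. Mrgprx3-ps had 25.1, 32.0 and 28.4 CPM in vehicle and 4.65, 17.8 and 25.1 CPM in vincristine. Grik1 (0.1), Tmem233 (0.103) and Gm16702 (0.115) were nearest to Lpar3. Mrgprx1 lay closest to Tusc5 (0.052), 1810041L15Rik (0.059) and Ano3 (0.067). For Mrgpra3 these were Gm12565 (0.067), Tac1 (0.090), the substance P precursor, and Paqr5 (0.092). Mrgprb4 was nearest to Th (0.206), an enzyme that marks touch-sensitive C fibres, Slc4a11 (0.207) and Gm17641 (0.212), and Mrgprb5 to Mab21l1 (0.218), Hapln3 (0.231) and Gm13373 (0.243).

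In the Nppb class, Il31ra was nearest to P2rx3 (0.096), the ATP-gated channel of nociceptors, Cdh9 (0.113) and Nptx2 (0.125). Cysltr2 had Nppb as its nearest gene of all 15632 compared, at 0.17, then Slc10a6 (0.193) and Gm8773 (0.204). Nppb was nearest to Gm2694 (0.132), Gm8545 (0.142) and Atp6v1c2 (0.147). Sst was nearest to Tmem132b (0.059), Slain1 (0.074) and C130021I20Rik (0.078), and its nearest member, Nppb, was at 0.670. Among the members, Lpar3 and Mrgprx1 were closest to each other (0.153), and Mrgprd and Sst were farthest apart (1.129).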

How the data were processed

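RNA from 3 vehicle and 3 vincristine pools was measured by sequencing of stranded total RNA libraries, as reads of 75 nucleotides. The authors deposited raw counts, whole numbers of reads for each gene symbol; the submitters' processing notes name STAR, SAMtools, HTSeq and mm10 (GRCm38). Their versions, the annotation and the strand setting were not given there. The 5 summary lines of each table were left out: 14.8% to 24.8% of alignments fell outside genes, most in vincristine replicate 1, 31.1% to 40.5% were not unique and 0.253% to 0.331% were ambiguous. The labels call each pool a biological replicate; groups and replicate numbers come from the titles.

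Counts were tested with edgeR 4.0.16 (R 4.3.3): filterByExpr (minimum count 10, 16706 genes), TMM, robust glmQLFit and glmQLFTest, group only, two-sided, Benjamini-Hochberg over all genes tested. SE is the log2 fold change divided by the root of F. Profiles and group medians use log2 CPM with a prior count of 2. Alternatives used DESeq2 1.42.0, limma-voom (limma 3.58.1), other scalings, filters, thinning, a replicate block and each library left out. The steps were tested on simulated counts. Libraries of a group differed beyond counting noise.

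The 10 genes and 17 lists (273 entries, 4 matched by an older symbol and 2 unmatched) were chosen with earlier results of these data known. Named besides the members are the 3 genes nearest in profile to each member and, from the lists, genes with the smallest p or, for cell types, the highest level. Identity between family members was computed on the longest open reading frames rather than on proteins. Positions and lengths are from GENCODE M21; 9 members had a RefSeq window before their start.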

Additional observations from a re-analysis of the deposited data

How the results depend on the processing

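The count of members called was 0 under DESeq2 and limma-voom, other scalings and filters, thinning, the replicate block and each left-out library. It was 1 (Mrgprd, log2 -0.58) only by DESeq2 without vincristine replicate 1, chosen after the data were seen, where 600 genes were called in all. The count over all genes, 60 by edgeR, was 551 by DESeq2, 476 by limma-voom with sample quality weights, 99 without a filter, 261 with the replicate block and 19 when scaled to pan-neuronal markers, and ran from 0 to 346 with a library left out. With vehicle replicate 1, 2 or 3 left out edgeR called 0 (1462, 1063 and 1409 at an unadjusted p under 0.05), and with vincristine replicate 2, 3 or 1 left out 6, 18 and 346; DESeq2 was run only on all libraries and without vincristine replicate 1. The members' median log2 fold change lay between -0.71 and -0.09 over all alternatives. The -0.09 came from the pan-neuronal scaling, where the median of all genes was 0.50. The number of members lower without overlap was 4, where 1589 of 16706 genes tested were. Scaled to pan-neuronal markers it became 2 (all genes: 220 of 16706). It was 5 after thinning (1425 of 16019) and without vehicle replicate 3 (2469 of 16948). It was also 5 without vincristine replicate 1 (2190 of 16887) or 2 (2347 of 16949). With any library left out, more of all genes lay lower without overlap than with all 6. The sign of small log2 fold changes turned. Mrgprb4 was at 0.23 with sample quality weights and 0.21 by DESeq2 without vincristine replicate 1, and Il31ra at -0.04 with the replicate block. Scaled to pan-neuronal markers Mrgprb4 was at 0.05 and Sst at 0.52, to be read against the same 0.50. With 1 library left out, Mrgprb4 ran from -0.68 to 0.22, Nppb from -0.11 to 0.35, Sst from -0.37 to 0.01, Il31ra from -0.32 to 0.48 and Cysltr2 from -0.18 to 0.45. The cause of these turns was not tested. Same-numbered libraries deviated together for 1 and 2 (correlation 0.428 and 0.248) and not for 3 (-0.094). The largest correlation, 0.491, was between vehicle replicate 2 and vincristine replicate 3. Deviations within a group of 3 libraries depend on each other, so these correlations cannot show or exclude a pairing. The replicate numbers are not stated to pair the pools, so the main fit had no block. Depth was lowest for Mrgprb5 in vincristine replicate 1, with 20 reads. Thinning to the smallest library moved Mrgprb5 from -0.98 to -1.03 and Mrgpra3 from -0.51 to -0.63.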
